A study of Mus musculus with 375 samples.

Results

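Cardiomyocytes of T cell-deficient mice were compared with those of wild-type mice 2 weeks after pressure overload, cell by cell. The cells described here are those of the CD3e-/- mice that carry set number 2 in the sample titles, and they were chosen by that label and by quality alone. A cell was kept if at least 3000 genes had a count above 0 and if no other cell had exactly the same counts, which left 77 of 80 cells, out of 320 kept cells and 375 cells in the whole series. They were set against 59 of 65 cells of wild-type (WT) set 1 and 62 of 63 cells of WT set 2.

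All mice were labelled C57BL/6N, while the study's methods give the knockout line only a C57BL/6 background, and had transverse aortic constriction (TAC), a ligature on the aortic arch that makes the left ventricle pump against a raised pressure. They were males aged 8 weeks, and the cells of a group came from 2 mice. The CD3e-/- mice lack the CD3e gene in every cell of the body from conception, so they never form mature T cells of any class, while a further group, labelled CD8 T cell depletion, lost only its CD8+ T cells, to an antibody according to the study's methods. Left ventricles were digested by perfusion, rod-shaped living cardiomyocytes were picked by pipette, and full-length cDNA of each cell was made by Smart-seq2 and sequenced. The labels do not say what a set number stands for (a mouse, a day or a plate), so p-values across sets may measure technical spread. No test between groups treated the cells of 1 set as replicates.

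The first CD3e-/- set is shown only as a check. It kept 11 of 31 cells, 19 others fell under 3000 genes, and 1 cell was left out because 1 cell of each CD3e-/- set held exactly the same counts, so that 1 pair of columns was dropped from both. Its summed counts had Spearman (rank) correlations of 0.537 to 0.576 with those of the other sets. For CD3e-/- set 2 with WT sets 1 and 2 the values were 0.926 and 0.919. CD3e-/- set 2 held 24057660 counts on nuclear genes in its 77 cells, against 23691021 and 20540110 in the 59 and 62 WT cells. Per cell its median was 223873 (range 42111 to 2059675), below the WT medians of 413073 and 242696. The median number of detected genes was 5581 against 5343 and 4646. Counts from mitochondrial DNA made up a median of 92.1% of all counts per cell against 77.3% and 85.3% in the WT sets, and their part in the results below was not tested except where values within bands of that share are given. The 13 cardiomyocyte identity genes (troponins, actin, titin and the like) were read in 100% of thinned cells at the median gene in each of these 3 sets, so the label was borne out. Cd3e itself was read in 8 of the 77 cells and in no WT cell. This does not check the genotype, since cardiomyocytes do not use the gene and the deleted part is not stated.

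The heart muscle of an embryo makes β-myosin heavy chain (Myh7) and, in the ventricle as well as the atrium, atrial natriuretic peptide (Nppa). In the mouse both are largely shut off in the ventricle around birth, when α-myosin (Myh6) takes over, and both return when the ventricle is overloaded, which made them standard marks of the hypertrophic response. Csf1 encodes macrophage colony-stimulating factor, the ligand of the receptor Csf1r, on which macrophages depend for survival and growth. CD3ε is a part of the T cell receptor complex without which thymocytes do not mature.

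The sequences just upstream of Nppa and Myh7 are shown because these were the marker genes whose levels differed most. They are the 250 bases before the annotated start in RefSeq on build GRCm38.p6, 5′ to 3′ on the gene's strand, for Nppa chr4:148000472-148000721 (plus strand) and for Myh7 chr14:54994627-54994876 (minus strand). Capitals mark matches, on either strand, to 4 motifs. The letters TATAAA stand for the core promoter box of that name. The letters GATAA are bound by the cardiac zinc finger factors named after them. The letters TNAAGTG are bound by NK homeobox factors. The letters CATTCC form the element bound by TEAD factors. No match overlapped another.
Nppa: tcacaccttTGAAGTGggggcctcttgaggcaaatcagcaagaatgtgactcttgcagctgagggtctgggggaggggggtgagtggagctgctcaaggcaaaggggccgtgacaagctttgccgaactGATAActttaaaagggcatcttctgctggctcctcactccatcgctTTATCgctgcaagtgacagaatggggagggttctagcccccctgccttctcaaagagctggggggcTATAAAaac
Myh7: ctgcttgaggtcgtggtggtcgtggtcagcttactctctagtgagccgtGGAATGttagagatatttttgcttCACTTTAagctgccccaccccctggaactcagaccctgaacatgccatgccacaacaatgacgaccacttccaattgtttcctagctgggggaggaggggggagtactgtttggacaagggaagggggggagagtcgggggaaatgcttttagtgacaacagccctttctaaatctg
The Nppa stretch held 1 match of the core promoter box, 2 of the zinc finger motif and 1 of the NK homeobox motif. The Myh7 stretch held 1 NK homeobox match and 1 TEAD match. The same stretch before Csf1 held none of the 4. Of 32851 such upstream stretches, 12.4% held the core promoter box, 22.6% the zinc finger motif, 10.1% the NK homeobox motif and 12.6% the TEAD motif, so these matches are a description and not sites.

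Nppa was the gene with the smallest p-value of all, and it was high in the CD3e-/- cells. Its level in summed counts was 6505 CPM (counts scaled to 1000000 nuclear counts of the set) in CD3e-/- set 2, against 279 and 341.9 CPM in WT sets 1 and 2 (310.4 ± 44.5, SD, n = 2 sets). The CD3e-/- value lay far above both WT sets, and the few cells of CD3e-/- set 1 gave 3923 CPM. Nppa (chr4:148000722-148002079, mm10) rose by 4.16 on the log2 scale (SE 0.51, adjusted p = 2.25e-05, edgeR quasi-likelihood test over 5 sets with Benjamini-Hochberg adjustment over 13374 genes). Here the lone CD3e-/- set was assumed to vary as the WT and CD8-depleted sets do. The call was lost when every cell was given equal weight in a limma fit (log2 5.31, adjusted p = 0.283). It was also lost when CD3e-/- set 1 entered the edgeR fit (log2 3.58, adjusted p = 0.554).

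Within CD3e-/- set 2 Nppa was high in most cells and extreme in some. The median cell had 2822 CPM, with quartiles of 834 and 7874 and a range of 4.86 to 68390 CPM, while the median WT cell had 144.8 CPM in set 1 and 35.7 CPM in set 2. The groups overlapped: the highest WT cells reached 2819 and 8939 CPM, and 17 of the 77 CD3e-/- cells lay above the highest WT cell of either set. Above 1000 CPM lay 54 of 77 CD3e-/- cells, against 7 of 59 and 4 of 62 WT cells, and above 10000 CPM lay 15 CD3e-/- cells and 0 WT cells. After each cell was thinned at random to 50000 nuclear counts, which 75 of the 77 cells allowed, Nppa was read in 75 of 75 cells (exact Clopper-Pearson 95% interval 95.2 to 100%), against 42 of 59 (57.9 to 82.2%) and 44 of 62 WT cells (58.05 to 81.8%). These intervals treat the cells of a set as independent draws, so they leave out any spread between sets or mice.

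**Figure D1:**
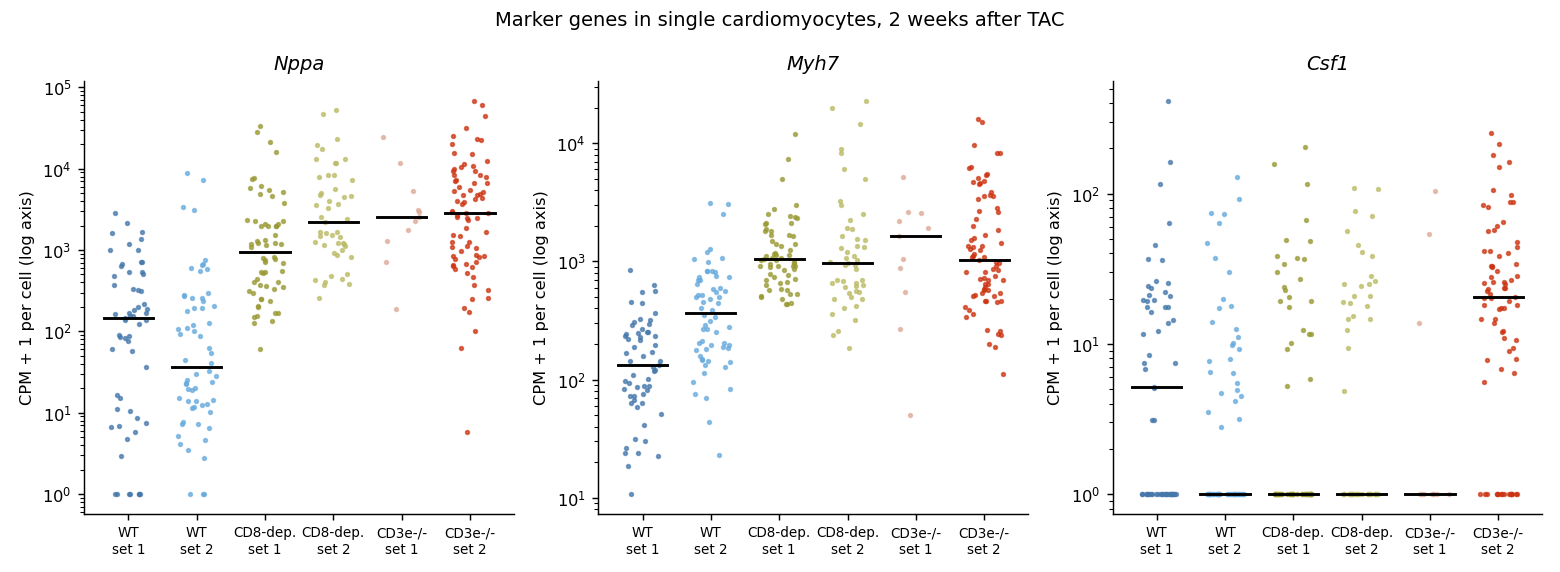
Level of Nppa, Myh7 and Csf1 in each kept cell of the 6 sets (CPM of nuclear counts plus 1, log axis), where each point is a cell and each bar the median of a set. The CD3e-/- set 2 medians of 2822 CPM for Nppa and 1022 CPM for Myh7 lie above both WT medians, while for Csf1 the cells overlap and the medians are 19.5, 4.18 and 0 CPM.

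Myh7 rose by less than Nppa, and its call was less firm. Its summed level was 1900 CPM in CD3e-/- set 2 against 170.5 CPM in WT set 1 and 429.4 CPM in WT set 2 (299.9 ± 183, SD, n = 2 sets), with 1462 CPM in CD3e-/- set 1. The log2 change was 2.38 (SE 0.50, adjusted p = 0.0275, edgeR quasi-likelihood test with Benjamini-Hochberg adjustment; chr14:54970684-54994626, mm10). The call rested on WT set 1, since without that set the change was 1.77 with an adjusted p of 0.101, and DESeq2 gave 2.38 with 0.0829. The median CD3e-/- cell had 1022 CPM (range 109.7 to 16130) against 130.9 and 368.3 CPM in WT, and 19 of 77 CD3e-/- cells lay above the highest WT cells, which reached 847 and 3097 CPM.

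Read against its adult counterpart, the shift in myosin counts was visible but small. Myh7 made up 10.4% of the counts on the 2 myosin genes in CD3e-/- set 2, against 2.22% and 3.47% in the WT sets. Myh6 was at 16440 CPM against 7515 and 11945 CPM (log2 0.51, SE 0.52) and did not pass the test, so the larger Myh7 share did not come with a lower Myh6 level. Counts were not divided by transcript length, so this percentage compares sets and not the 2 genes.

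Csf1 (chr3:107741048-107760469, mm10) was read in a larger share of CD3e-/- set 2 cells than of WT cells, but its level did not pass the test. Of the thinned cells, 49 of 75 (65.3%, interval 53.46 to 75.96%) held a Csf1 read in CD3e-/- set 2, against 16 of 59 (27.1%, 16.4 to 40.3%) and 18 of 62 (29.03%, 18.2 to 41.9%) in WT. Averaged over all possible draws, the share was 60.1% against 33.3% and 23.3%, a gap of 26.8 points. Without thinning the counts were 61 of 77, 33 of 59 and 29 of 62 cells, and 3 of 11 in CD3e-/- set 1. The median cell of CD3e-/- set 1 had 0 CPM of Csf1, and the summed level of that set was 23.2 CPM. In summed counts Csf1 was at 38.7 CPM against 16.6 and 9.20 CPM (12.9 ± 5.25, SD, n = 2 sets), a log2 difference of 1.42 (SE 0.68) with an unadjusted p of 0.0437 and an adjusted p of 1 in edgeR. No CD3e-/- cell exceeded the highest WT cell, which stood at 414.3 CPM, against 250.6 CPM in the highest CD3e-/- cell.

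Among the CD3e-/- cells, Nppa varied alongside other stress genes. Over the 75 thinned cells, which share 1 library set and 1 depth, the Spearman correlation of Nppa was 0.56 with Ankrd1 (a stress-responsive protein of the I-band), 0.47 with Nppb (B-type natriuretic peptide), 0.27 with Myh7 and -0.36 with Csf1. In WT sets 1 and 2 the value for Nppa with Ankrd1 was 0.072 and 0.082, and for Nppa with Csf1 it was 0.082 and 0.20. For Nppa with Nppb it was 0.25 and -0.05 there, and for Nppa with Myh7 0.04 and 0.14. These are descriptions of cells within a set, since weak correlations in sparse counts are no finding.

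The share of mitochondrial counts, which differed between the sets, was held within bands for these genes. In cells with 80 to 90% mitochondrial counts (18 and 38 WT cells and 27 CD3e-/- cells) the median Nppa level was 67.4 and 29.7 CPM in WT and 1477 CPM in CD3e-/- set 2. In cells with 90 to 95% (8, 8 and 22 cells) it was 690, 48.3 and 4440 CPM. For Myh7 the 80 to 90% band gave 102 and 425 CPM in WT and 568 CPM in CD3e-/- cells, and for Csf1 it gave 0, 0 and 22.3 CPM. Above 95% lay 24 CD3e-/- cells but only 1 and 2 WT cells, and there the Myh7 median was 252 and 1688 CPM in WT and 1461 CPM in CD3e-/- cells. From 80 to 95% the CD3e-/- median of Nppa lay above both WT medians, with a narrower gap to WT set 1 in the higher band. The Myh7 median was close to that of WT set 2 in the lowest of these bands and below it above 95%. Over the 77 CD3e-/- cells the Spearman correlation with the mitochondrial share was 0.22 for Nppa and 0.38 for Myh7.

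**Figure D2:**
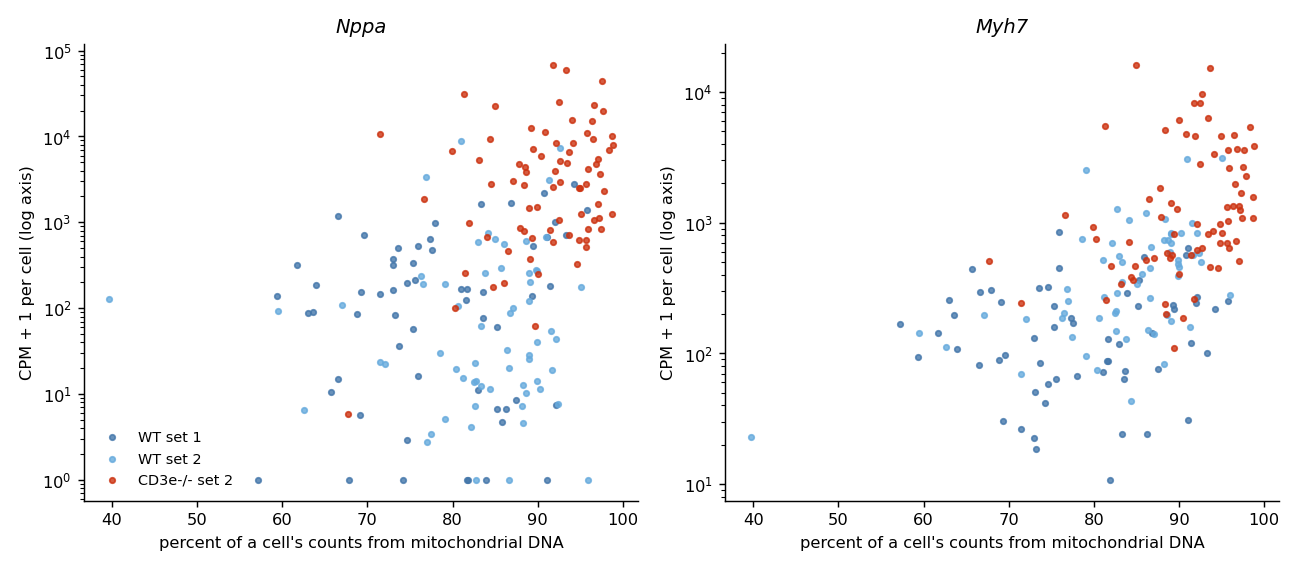
Nppa and Myh7 in each cell (CPM plus 1, log axis) against the cell's percent of counts from mitochondrial DNA, for WT sets 1 and 2 and CD3e-/- set 2. In the 80 to 90% range the CD3e-/- cells, with a median Nppa of 1477 CPM, lie above most WT cells, with medians of 67.4 and 29.7 CPM.

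The study followed a small panel of hypertrophy and growth genes, reported from bulk cardiomyocyte RNA. It also showed Myh7, Igf1r and Csf1 in single cardiomyocytes of this series, so the panel is not independent evidence. Of its 9 genes Nppa and Myh7 passed the test and 6 did not, where 7 of all 13374 genes tested were called higher. Igf1r, the receptor of insulin-like growth factor 1, was at 28.3 CPM against 15.1 and 10.3 CPM (log2 0.98, SE 0.71), with a read in 53.3% of thinned cells against 40.7% and 25.8%. Col1a1, a collagen chain of fibroblasts, was at 9.98 CPM against 1.35 and 1.36 CPM (log2 2.66, SE 1.22, adjusted p = 1 in edgeR) and was read in 29 of 77 cells against 2 of 59 and 3 of 62. Egfr, Osmr and Pdgfra stayed under 8 CPM in all 3 sets, and Il1rl1 had 0 counts in all 3 and was not tested.

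Across all genes few differences passed the test. At an adjusted p under 0.05, 7 of 13374 genes were higher in CD3e-/- set 2 (0.0523%) and 10 were lower (0.0748%) by edgeR, while 329 genes had an unadjusted p under 0.05, fewer than the 669 that this threshold alone would give. The number higher was 17 without WT set 1, 12 without WT set 2 and 11 without CD8-depleted set 1. The number lower was 17 and 16 without CD8-depleted sets 1 and 2. With every cell weighted alike, in a limma fit on the mean log2 of CPM plus 1 per set, 0 genes passed in either direction. In that limma fit 629 genes had an unadjusted p under 0.05.

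The other 5 genes called higher belonged to the extracellular matrix and its signals, and most of their counts came from very few cells. Thbs1 encodes thrombospondin 1, a matrix glycoprotein that activates latent TGF-β, and its level was 59.1 CPM against 0.675 and 0 CPM (log2 7.30, SE 1.14, adjusted p = 0.00106). A single cell held 88.3% of its CD3e-/- counts, yet 61 of the 77 cells had a read against 1 of 59 and 0 of 62, with a median of 2 counts in those 61 cells. Mfap5, a microfibril protein, was at 29.5 CPM against 0.507 and 0.243 CPM (log2 6.09, SE 0.77, adjusted p = 2.25e-05), with reads in 7 cells. Lpar1 (a lysophosphatidic acid receptor), Postn (periostin of activated fibroblasts) and Fn1 (fibronectin) were at 16.7, 46.7 and 43.9 CPM, each at most 2.28 CPM in the WT sets, with adjusted p-values of 0.00727, 0.0235 and 0.0213 in edgeR. They were read in 8, 10 and 6 of the 77 cells, and 1 cell held 31.3%, 86.2% and 95.9% of the counts. With the highest cell of each gene left out of each set, an alternative added after seeing the data, Nppa and Mfap5 remained called (log2 4.21 and 6.17). Thbs1 lost its call (adjusted p = 0.803) while its log2 difference was 9.65 with an SE of 2.52, and Fn1 dropped to 1.27 (SE 1.77, adjusted p = 1 in edgeR).

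**Figure D3:**
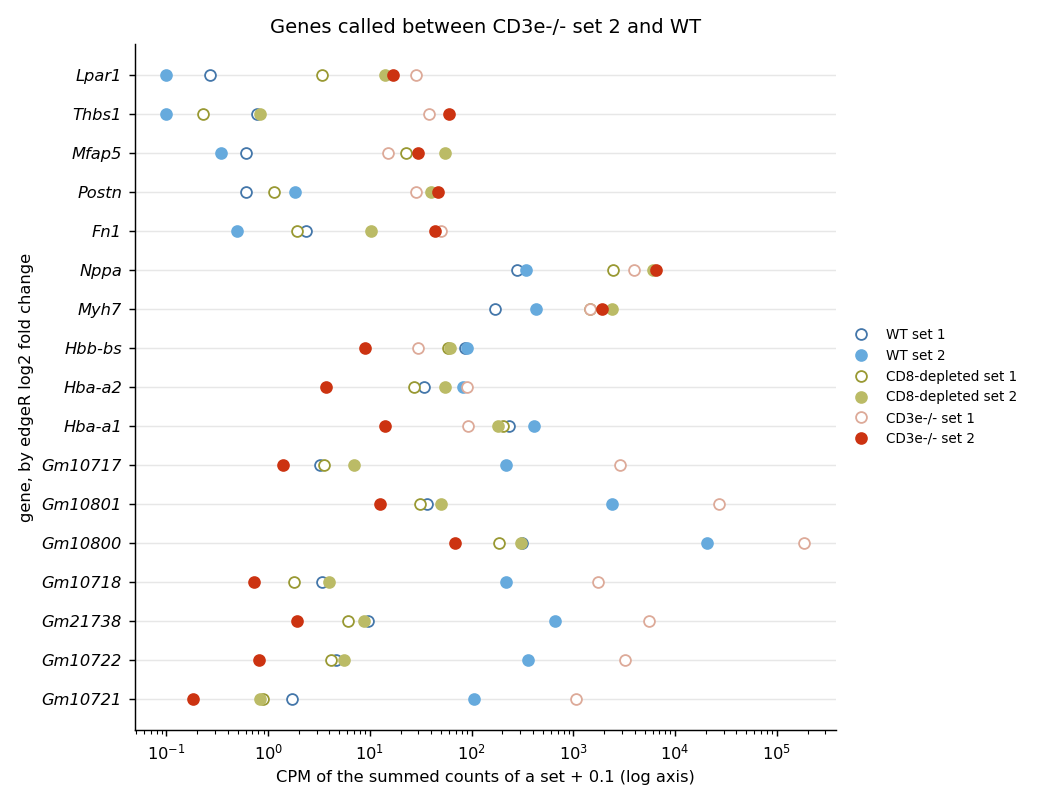
Level of the 17 genes called by edgeR in the summed counts of each of the 6 sets (CPM plus 0.1, log axis), with open symbols for set 1 and filled symbols for set 2 of each group. The 7 higher genes lie above both WT sets in CD3e-/- set 2, led by Nppa at 6505 CPM against 279 and 341.9 CPM, and the satellite-type Gm genes are highest in CD3e-/- set 1.

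The 10 genes called lower were globins and predicted genes, and single WT cells decided most of them. Hba-a1, an α-globin chain of red blood cells, fell from 235 and 407 CPM in WT to 13.97 CPM (log2 -4.78, SE 0.61, adjusted p = 2.25e-05), and Hba-a2 and Hbb-bs fell by 4.29 and 3.55 on the log2 scale. The highest cell held 81.6% of the Hba-a1 counts in WT set 1 and 97.0% in WT set 2. Without the highest cells the Hba-a1 difference was -1.44 with an adjusted p of 1 in edgeR. The differences for Hba-a2 and Hbb-bs were then -0.84 and -0.97, and neither was called. Hbb-bs was read in 33.3% of thinned CD3e-/- set 2 cells, against 32.2% and 9.7% in WT sets 1 and 2. The other 7 were Gm10800, Gm10801, Gm10717, Gm10718, Gm10721, Gm10722 and Gm21738, gene models that share near-identical satellite-like sequence, so reads cannot be split among them with certainty. Gm10800 was at 312 CPM in WT set 1, 20724 CPM in WT set 2 and 68.9 CPM in CD3e-/- set 2, and 1 cell of WT set 2 held 99.8% of its counts there. In CD3e-/- set 1 it stood at 183697 CPM.

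Nppa and Myh7 did not separate the T cell-deficient mice from the mice that lost only CD8+ T cells. Nppa was at 2434 and 6047 CPM in CD8-depleted sets 1 and 2, and the direct difference of CD3e-/- set 2 from them was 0.44 on the log2 scale (SE 0.50, adjusted p = 1). Myh7 was at 1466 and 2414 CPM there, with a difference of -0.21 (SE 0.52, adjusted p = 1). These p-values do not show that the levels are alike. Csf1 stood at 17.01 and 14.99 CPM after CD8 depletion and differed by 1.08 (SE 0.68, unadjusted p = 0.123, adjusted p = 1 in edgeR), and its share of thinned cells with a read was 24.6% and 30.4% there against 65.3%. Over all 13374 genes this contrast, added after seeing the data, gave 1 higher gene (0.00748%), Thbs1, and 1 lower gene (0.00748%), Hba-a1.

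The share of cells in which a gene was read, taken at equal depth, showed a wider set of genes than the summed levels did. Of 9046 genes read in at least 10% of the thinned cells of 1 of the 3 sets, 75 (0.829%) had a share in CD3e-/- set 2 at least 25 percentage points above both WT sets, and 1 gene (0.0111%) lay as far below both. This rule has no test, and the WT sets differ from each other too: 451 genes lay at least 25 points higher in WT set 1 than in WT set 2 and 30 lay the other way. Against a single WT set the counts were 460 without WT set 1 and 244 without WT set 2, with 6 and 39 lower. The median share over all genes considered was 38.7% in CD3e-/- set 2 against 33.9% and 27.4%. Atcay and Rxrb, with gaps of 25.08 points, were just inside the threshold, and Mapk8ip3 and Sema3b, with 24.82 and 24.86, just outside. The 75 depend on the random draw of counts: with the expected share over all draws the number was 52, and 39 genes were in both, Csf1 among them but not Nppa, whose expected gap was 23.7 points.

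Map1b, which encodes a microtubule-associated protein best known from growing nerve fibres, had the widest gap. It was read in 73.3% of thinned CD3e-/- cells, against 10.2% and 11.3% of WT cells, and in 75 of 77, 13 of 59 and 15 of 62 cells without thinning. Its summed level was 32.8 CPM against 7.94 and 3.80 CPM (log2 2.33, SE 0.72, unadjusted p = 0.00289, adjusted p = 0.921 in edgeR). The CD8-depleted sets had a read in 19.3% and 34.8% of cells. In the band of 80 to 90% mitochondrial counts the median Map1b level was 0 and 0 CPM in WT and 19.1 CPM in CD3e-/- cells, and in the band of 90 to 95% it was 0, 0 and 34.8 CPM. Map1b was higher where the mitochondrial share was higher: above 95%, where 24 of the 77 CD3e-/- cells but only 1 and 2 WT cells lay, the medians were 27.98 and 11.6 CPM in WT and 91.3 CPM in CD3e-/- cells. The part of the mitochondrial share in the Map1b gap over all cells was not tested.

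At full depth Sox11 and Nog were read at a few counts in most CD3e-/- cells and in almost no WT cell. Sox11, a transcription factor of embryonic tissues, had a read in 72 of 77 cells against 1 of 59 and 3 of 62, and the 234 counts lay evenly, with a median of 3 and at most 7 in a cell. At equal depth its share was 56% against 0% and 1.6%, and it was 0% and 4.3% in the CD8-depleted sets. Nog, which encodes the secreted BMP antagonist noggin, had a read in 57 of 77 cells against 1 of 59 and 0 of 62, with a median of 2 and at most 5 counts in a cell. At equal depth the share for Nog was 28% against 0% in both WT sets. Both genes are annotated with 1 exon. Cadm1, a cell adhesion protein, had the same even spread, with reads in 48 of 77 cells against 2 of 59 and 1 of 62 and at most 5 counts in a cell, and with 29.3% of thinned cells against 1.69% and 0%. Their levels, at 9.73 CPM for Sox11, 4.20 CPM for Nog and 4.24 CPM for Cadm1, were low and passed no test. Sox11, Nog and Cadm1 were considered by the share rule only through their reads in CD3e-/- set 2, so by that rule they could not come out lower. Of the 11 cells of CD3e-/- set 1, 5 had a Sox11 read, 0 a Nog read and 8 a Cadm1 read.

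Other genes of this group were already read in a good part of WT cells. Crim1, a membrane protein that binds BMPs, was read in 92% of thinned cells against 45.8% and 37.1%, and was at 28.1% and 37.0% in the CD8-depleted sets. Syk, a tyrosine kinase best known from immune cells, was read in 68% against 28.8% and 29.03%, and Chd7, a chromatin remodeller, in 80% against 38.98% and 43.55%. Cpxm2, a carboxypeptidase-like protein, was at 67.8 CPM against 12.5 and 15.5 CPM (log2 2.05, SE 0.53, adjusted p = 0.277 in edgeR) and was read in 66.7% against 18.6% and 29.03%. Tgfb2, a ligand of the TGF-β family, was read in 61.3% against 20.3% and 25.8% and had a log2 difference of 1.91 (SE 0.65, unadjusted p = 0.00621). Pnisr, a protein of nuclear speckles, was read in 86.7% against 37.3% and 51.6% (log2 1.83, SE 0.49, adjusted p = 0.333 in edgeR). Of the 75 genes, 23 had a median of 0 CPM in both WT sets.

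**Figure D4:**
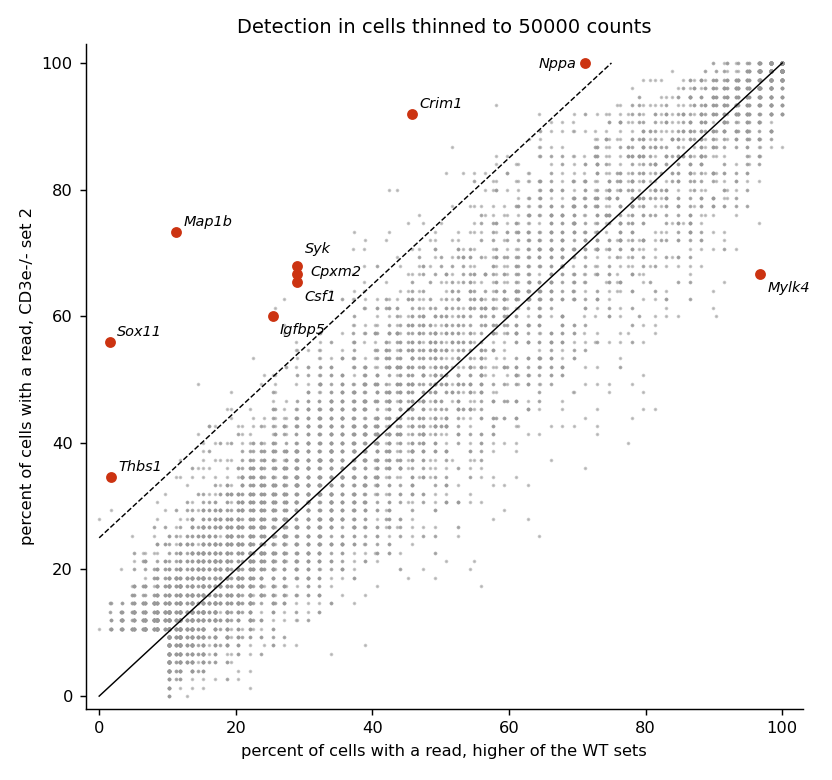
Percent of thinned cells with a read in CD3e-/- set 2 against the higher of the 2 WT sets, for each gene considered. The solid line marks equal shares, points on or above the dashed line are the 75 genes at least 25 points higher, and named genes are red, with Map1b at 73.3% against 11.3% and Mylk4 at 66.7% against 96.8%.

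Many of these genes were also read widely in the CD8-depleted sets, which are compared with the same WT cells. Pnisr was read there in 96.5% and 78.3% of thinned cells, Chd7 in 75.4% and 45.7% and Tgfb2 in 40.4% and 47.8%. At least 25 points above both CD8-depleted sets as well, a comparison that uses the same CD3e-/- cells, lay 15 of the 75, Thbs1, Csf1, Ptbp2, Dnajc2, Ucp3, Scn4b, Nog, Sox11, Mta1, Rab24, Map1b, Drosha, Xpnpep3, Arid2 and Crim1. Cpxm2 and Syk were not among them, with 57.9% and 54.3% for Cpxm2 and 57.9% and 52.2% for Syk in the CD8-depleted sets. The 75 genes had a median exonic length of 5813 bases against 4775 bases for the 9046 considered, and 62.7% of them were longer than 5000 bases against 47.4%.

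Mylk4 was the gene below both WT sets by 25 points. It encodes a myosin light chain kinase of muscle, and it was read in 66.7% of thinned CD3e-/- cells against 94.9% and 96.8% of WT cells. The median cell had 26.2 CPM against 144 and 101 CPM, and the summed level was 59.4 CPM against 190 and 113 CPM (log2 -1.52, SE 0.52, unadjusted p = 0.00599, adjusted p = 1 in edgeR). The next genes in this direction were Klhl30, Fig4 and Maob, the last a monoamine oxidase of the outer mitochondrial membrane, read in 41.3% against 64.4% and 58.1%.

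Median levels per cell gave a broader picture in which most of the shift lay against WT set 2. Of 4140 genes with a median of at least 10 CPM in 1 of the 3 sets, 413 (9.98%) had a median at least 2-fold above both WT sets and 28 (0.676%) at least 2-fold below both, on the scale of CPM plus 1. WT set 1 lay 2-fold above WT set 2 for 1312 genes and 2-fold below it for 250, and without WT set 1 or 2 the higher count was 1311 or 711 and the lower count 44 or 375. The median log2 difference of CD3e-/- set 2 over all 4140 genes was 0.09 to WT set 1 and 0.61 to WT set 2. Of the 413 genes, 57 were also among the 75 of the share rule. Syk, Map1b, Cpxm2, Upp1, Igfbp5, Ptbp2 and Nppa were among the genes with the widest gaps upward. Upp1, an enzyme of uridine breakdown, had a median of 22.3 CPM against 0 and 0 CPM, but in summed counts its 45.8 CPM lay between the WT sets at 24.4 and 53.9 CPM (log2 -0.05, SE 0.57). Nnt, the proton-pumping transhydrogenase of the inner mitochondrial membrane, was lower in the median cell, at 85.1 CPM against 539 and 285 CPM. Its summed log2 difference was -1.81 (SE 0.47, unadjusted p = 5.57e-04, adjusted p = 0.298 in edgeR). The study's methods do not name the substrain of the knockout line. The part of substrain in the Nnt difference, or in any other difference from WT given here, was not tested.

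Lists of genes by role were read against all genes tested, of which 6209 of 13374 had a log2 difference above 0 with a median of -0.06. Scaling by library size alone moved that median to 0.13. Fetal and stress genes of the ventricle lay above it, with 17 of 24 above 0 and a median of 0.43. Of them 2 were called, Nppa and Myh7, where 7 of all 13374 were called higher. Both are also markers of this comparison. Xirp2, a muscle protein of the intercalated disc, was at 4866 CPM against 2199 and 1133 CPM (log2 1.39, SE 0.45, unadjusted p = 0.00379), and skeletal α-actin (Acta1) at 15923 CPM against 8311 and 5410 CPM (log2 1.04, SE 0.50, unadjusted p = 0.0467), but neither passed the adjusted test. Nppb did not share the direction of Nppa, at 334 CPM against 579 and 445 CPM (log2 -0.80, SE 0.44, unadjusted p = 0.0796). Sarcomere genes had 8 of 27 above 0 and a median of -0.19, which turned to 0.03 with scaling by library size alone and to 0.14 without WT set 2.

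Genes of mitochondrial energy supply mostly lay below the WT levels, though none of them was called. All 22 tested genes of the citric acid (TCA) cycle had a log2 difference below 0 (median -0.43), and 17 of the 22 had a median level per cell below both WT sets, with 0 above both, against 538 below both and 1926 above both of all 4140 genes considered. Citrate synthase (Cs) was at 1003 CPM against 1717 and 1076 CPM, and Sdha, a subunit of succinate dehydrogenase, at 920 CPM against 1345 and 1098 CPM. Of the nuclear genes of complexes III and IV, 22 of 23 lay below 0 (median -0.49), of ATP synthase 14 of 15 (-0.49), of complex I 34 of 37 (-0.37) and of fatty acid uptake and oxidation 27 of 30 (-0.25). With scaling by library size alone the medians moved up to -0.21 for the cycle, -0.29 for complexes III and IV, -0.15 for complex I and -0.03 for fatty acid oxidation, the last with 13 of 30 genes above 0. Ckmt2, the creatine kinase of cardiac mitochondria, was at 2339 CPM against 3463 and 4901 CPM (log2 -1.08, SE 0.53, unadjusted p = 0.049, adjusted p = 1 in edgeR). Each cell is scaled to its nuclear counts, and the higher share of mitochondrial counts in CD3e-/- set 2 stands beside these values without a test of its part.

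**Figure D5:**
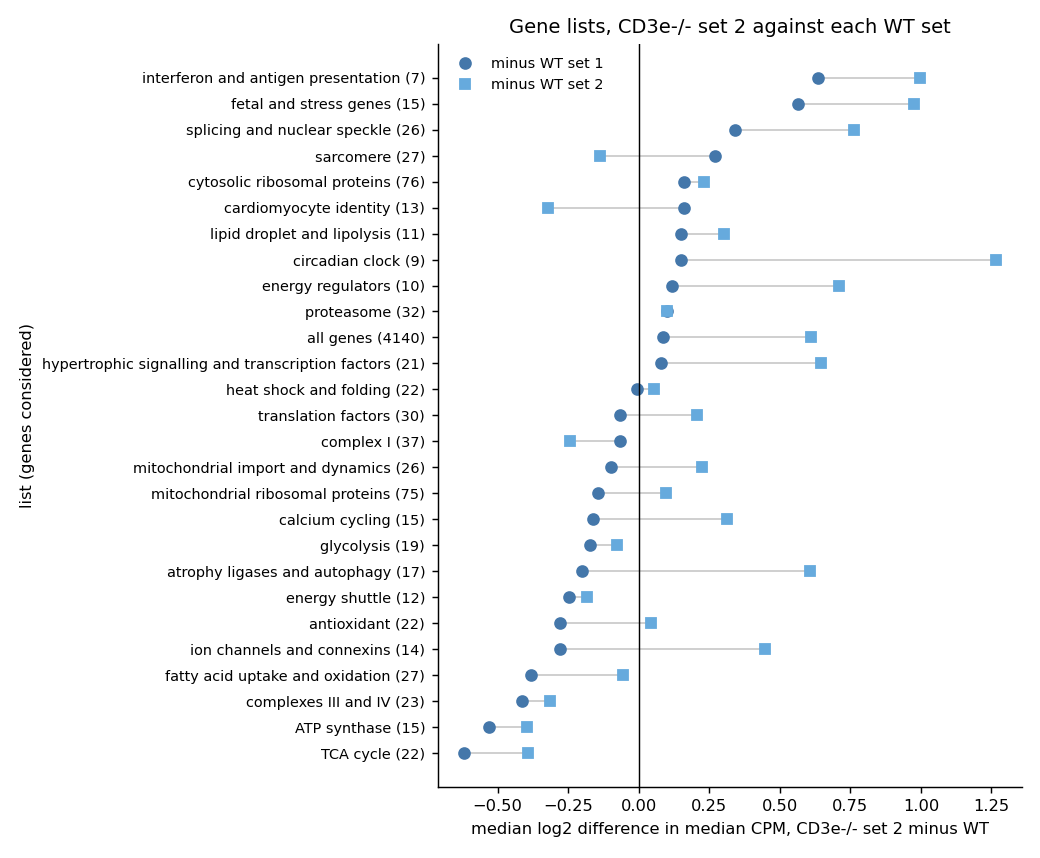
Median over each gene list of the log2 difference in median CPM per cell (plus 1) between CD3e-/- set 2 and each WT set, for lists with at least 7 genes considered. The TCA cycle list lies below 0 against both WT sets, at -0.62 and -0.39, while over all genes the medians are 0.09 and 0.61.

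Genes through which cardiomyocytes address immune cells were mostly read at low levels. Interferon and antigen presentation genes had 22 of 39 above 0 with a median of 0.34 and none called, and of the 21 read in enough cells 19 had a share above both WT sets, where 4945 of all 9046 genes considered did so. B2m, the light chain of class I molecules, was read in 92% of thinned cells against 71.2% and 40.3%. Among genes whose products act on macrophages, 9 of 15 tested lay above 0 (median 0.10) with Thbs1 called, where 7 of all 13374 were called higher. Csf1 and Thbs1 were the 2 of 7 that passed the 25-point rule, as 75 of all 9046 genes considered did. Csf1 is a marker that the study had already reported as higher in single cardiomyocytes of this series, so its passing is not independent evidence. Thbs1 was considered only through its reads in CD3e-/- set 2, where 1 cell held 1256 of its 1422 counts. Il34, the other ligand of the Csf1 receptor, and Ccl2, a monocyte attractant, were at most 1.17 CPM in these 3 sets. Growth factor genes had 13 of 25 above 0 with a median of 0.02, among them Hbegf at 37.8 CPM against 25.7 and 12.4 CPM.

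Markers of other cells were counted because picked cardiomyocytes can carry fragments of neighbours. Fibroblast markers summed to 302 CPM in CD3e-/- set 2 against 187 and 53.7 CPM, with 12 of 14 above 0 (median 2.39, or 0.29 with every cell weighted alike). Of these markers 2 were called, where 7 of all 13374 genes were called higher. The part of fibroblast markers in the matrix calls was not tested. Matrix genes had 23 of 27 above 0 and a median of 1.51, or 0.22 with cells weighted alike. Endothelial markers summed to 544 CPM against 713 and 564 CPM, with 13 of 15 below 0 (median -0.76). Markers of pericytes and smooth muscle summed to 3378 CPM against 1277 and 1836 CPM, with 6 of 10 above 0 (median 1.02, or 0.07 with cells weighted alike) and none called. Most of that sum was Des, the desmin gene that heart muscle also expresses, at 3141 CPM against 1045 and 1590 CPM. Macrophage and monocyte markers summed to 28.1 CPM against 34.8 and 12.8 CPM, and 5 of their 20 genes had 0 counts in CD3e-/- set 2. T cell markers summed to 5.0 CPM against 0.3 and 2.3 CPM, with 7 of 13 at 0, Cd3d, Cd3g and Cd8a among them. Red blood cell genes summed to 27.5 CPM against 358 and 589 CPM, and 3 of 5 tested were called lower, where 10 of all 13374 were.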

How the data were processed

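The values are read counts per gene and cell, deposited as one table that the authors made with fastp 0.21.0, STAR 2.7.5c and featureCounts on mm10 according to the submitters' processing notes. Their normalization was none, and strand use in counting is not given in the sources used here, so overlapping genes cannot be told apart. Methods given in the study name another aligner and build for its own expression values, which were not used here. Full-length Smart-seq2 reads carry no molecular identifiers, so copies made by amplification were counted.

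All 375 cell columns were matched to samples by name, and 0 columns were unused. Cells under 3000 genes and columns with identical counts were left out, and the 13 mitochondrial genes were removed from all totals, leaving 21859 of 21872 genes. Counts were summed per set, scaled by TMM and tested with edgeR 4.0.16 (quasi-likelihood, R 4.3.3) over 5 sets with group as the only term, 2 residual degrees of freedom and Benjamini-Hochberg adjustment. CD3e-/- set 1 was kept out of that fit. For the share rule each cell was thinned to 50000 nuclear counts in 1 seeded draw, leaving out shallower cells (2 in CD3e-/- set 2). For the median rule 1 CPM was added. These 2 rules carry no test. Intervals are exact Clopper-Pearson at 95%. A check on simulated counts, which took their spread from the main fit, followed the fits.

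The text names the markers, the study's panel and the called genes (up to 8 per direction from 20 CPM). It describes only some of the 8 widest gaps per direction under each rule, and up to 4 genes per list and direction. Under the share rule Tecpr1 (higher) and Rabgap1l, Akr1b10, Gstm2 and Lrrc27 (lower) are named only here. So are Pcmt1, Wdfy1, Cstb, Smchd1, Scd4 and Snrpc, lower under the median rule. Other genes, among them Hba-a2, Hbb-bs, Lpar1, Mfap5, Postn, Fn1, Nog, Cadm1, Tgfb2, Pnisr, Ankrd1, Myh6, Acta1, Sdha and B2m, were named after their values were seen. A gene selected by the median rule is not reported here. The members and lists were chosen with earlier results of these data known. Alternatives were DESeq2 1.42.0, library size only, no filter, thinned cells, equal cell weights, other sets and a replicate block. Equal cell weights meant limma 3.58.1 on the mean log2 of CPM plus 1 per set. Added after the data were seen were the highest cell of each gene left out and cells with 80 to 95% mitochondrial counts. The expected share over all draws and the contrast with the CD8-depleted sets were also added then. Promoter sequences came from RefSeq (GRCm38.p6). Cell types were taken from the labels.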

Additional observations from a re-analysis of the deposited data

Results flagged for a closer look

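The median percent of counts from mitochondrial DNA per cell in CD3e-/- set 2 was 92.12, a signal outside the nuclear genes that were compared, and it lay above the 77.3 and 85.3 of the WT control sets. Its part in the differences above was not tested beyond the values within bands. The summed level of olfactory and vomeronasal receptor genes, which heart muscle does not use, was 1.284e+04 CPM in CD3e-/- set 1, against 126 CPM in CD3e-/- set 2 and 67.7 and 49.7 CPM in the WT sets, in a set that no comparison above rests on.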

How the results depend on the processing

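Nppa kept its call in all alternatives but 2, at 3.58 on the log2 scale with CD3e-/- set 1 in the fit and 5.31 with cells weighted alike, and its range without 1 set was 3.88 to 4.51. Myh7 kept its direction throughout but lost the call at 1.89 (6 sets), 2.38 (DESeq2), 2.37 (thinned cells), 2.54 (weighted alike), 2.24 (highest cell out) and 2.63 (80 to 95% mitochondrial counts), with 1.77 to 3.45 without 1 set. Csf1 was not called in any alternative (adjusted p 0.811 to 1). Deviations of WT set 1 and CD8-depleted set 1 from their group means had a correlation of -0.04 across genes. No CD3e-/- set entered that value, so it cannot show whether equal set numbers mark a pairing. With the replicate block Myh7 was at 2.00 and not called, and 4 genes were higher.

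The genes called higher by edgeR, 7 in the report, numbered 0 with 6 sets (1071 at an unadjusted p under 0.05), 11 with 3 sets, 4 with library size only, 3 thinned, 0 weighted alike, 2 with the highest cell out, 4 within 80 to 95% mitochondrial counts and 9 to 17 without 1 set. Those called lower, 10 in the report, numbered 0, 19, 2, 0, 0, 1 and 0 in that order, 6 with DESeq2 and 11 to 17 without 1 set. The share rule gave 33 higher and 2 lower at 20000 counts, 2 lower without thinning, 3 and 0 at 40 points, 2 lower among cells with 5000 genes, 182 and 0 within 80 to 95% mitochondrial counts, and 244 to 460 higher and 6 to 39 lower without 1 WT set. The median rule gave 81 lower by means, 214 and 75 by summed counts, 275 higher with 5 CPM added, 1072 higher without a filter, 47 lower among cells with 5000 genes, 755 and 11 within 80 to 95% mitochondrial counts, and 711 to 1311 higher and 44 to 375 lower without 1 WT set. Satellite-type genes reversed. With 6 sets Gm10721 was at 2.02, Gm10722 1.87, Gm21738 1.80, Gm10718 1.71, Gm10800 1.85, Gm10801 2.22 and Gm10717 2.44; weighted alike Gm10800 was at 0.268, Gm10801 0.202 and Gm10717 0.0218; with the highest cell out Gm10801 was at 0.0765 and Gm10717 0.0827. The cause of these shifts was not tested. The genes picked by the share and median rules changed too. With TMM scaling the median rule gave 281 higher and 40 lower. Of its 413 higher genes, 57 recurred by means, 42 by summed counts, 281 with TMM scaling and 413 without a filter. Of the 75 higher genes of the share rule, 25 recurred without thinning and 39 with another seeded draw. At 20000 counts 21 of the 75 recurred, and within 80 to 95% mitochondrial counts 49 did. Of the values for single named genes, 496 kept direction and call, 47 lost the call, 1 gained it and 10 moved.

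Having 1 CD3e-/- set against 2 WT sets limits every comparison. Genotype and set cannot be told apart, because CD3e-/- set 1 kept 11 cells of low quality. Low genes depend on depth, since 50000 counts per cell leave a gene of 20 CPM with about 1 expected count. Calls on summed counts follow single cells where 1 cell holds most counts.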
